A study of Mus musculus with 20 samples.

Results

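The genes described here are the protein components of the mitochondrial ribosome, taken as all gene symbols made of Mrpl or Mrps and a number with a mean of at least 1 FPKM (a read density scaled to transcript length and library size) in a table of expression values. All 77 matching symbols, 48 Mrpl genes of the large subunit and 29 Mrps genes named for the small subunit, passed this level in each of 4 tables. They stood among 11872, 9805, 10197 and 11578 genes at or above the level in resident macrophages, infiltrating cells, mdx muscle and injured muscle. None fell outside the level. The lowest means were 3.31 FPKM for Mrpl19 and 3.63 for Mrpl35 in resident macrophages, and 2.85 FPKM for Mrpl1 and 3.21 for Mrpl19 in infiltrating cells.

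The study measured RNA in 20 mouse skeletal muscle libraries. Resident macrophages came from steady-state muscle of male Cx3cr1-GFP mice as CD45+ CD11B+ LY6G- F4/80+ MERTK+ cells, in 4 gates set by surface class II molecules (MHCII) and green fluorescent protein (GFP), with 1 library each. Infiltrating cells were live (PI-) GFP+ CD45+ CD11B+ cells negative for LY6G and SIGLECF that had reached the damaged tibialis anterior (TA) of the wild-type partner in female WT/GFP parabiotic pairs, with 1 library at 2 days after injury, 2 at 4 days and 1 at 6 days. The mdx libraries were whole TA of female DMDmdx mice, which lack dystrophin, at 8 months of age after 6 months of control diet (3 mice) or PLX diet (3 mice), where control replicates 1 and 2 and PLX replicate 1 also carried the PDGFRaEGFP reporter. Injured muscle was whole damaged TA, 1 per library, of male C57BL/6J mice given either diet for 3 weeks, then 3 days of regular food, and then the injury. Each diet had 1 library taken 12 h after injury and 2 taken at 18 h. Both diets were AIN-76A, and the PLX diet held 200 mg per kg of PLX73086, an inhibitor of CSF1R, the receptor on which many macrophages depend. Every injured mouse of the PLX diet had been off the drug for those 3 days before damage. The control mice of both experiments ate the same base food without it.

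The mitochondrial ribosome translates the few proteins encoded by mitochondrial DNA, which are core subunits of the respiratory chain and of ATP synthase. All of its proteins are encoded in the nucleus, made by cytosolic ribosomes and imported. Some have counterparts in bacterial ribosomes, and others were added in the mitochondrial lineage. In muscle, a tissue rich in mitochondria, inherited loss of single members such as MRPL3, MRPL12, MRPL44, MRPS7, MRPS22 or MRPS34 is known in humans to cause respiratory chain deficiency. Among the 77, 47 have a bacterial counterpart and 29 do not. The remaining gene, Mrps36, is counted by its symbol, although its product is now known as a component of the 2-oxoglutarate dehydrogenase complex. The products of Mrps18a and Mrps30 are placed in the large subunit in mammalian structures despite their symbols.

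Depth per library is listed for infiltrating cells only, at 25953400 to 34655400 alignments. In the other tables the total depth is unknown, and only relative depth could be had, from the steps between low values. By this measure the shallowest library reached 0.64 of the deepest in resident macrophages, 0.75 in mdx muscle and 0.62 in injured muscle. All 14 pan-macrophage markers reached 1 FPKM in every group of sorted cells, and all 15 fibre markers did so in every group of whole muscle. The tables were normalized separately, so levels are compared within a table only.

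Members of the mitochondrial ribosome stood above the typical gene of each table. Their distance to it, taken within each table, was greater in whole muscle than in sorted cells. Each table has its own normalization and set of tested genes, so these distances are a description only. The median member stood at 36.6 FPKM in mdx muscle and 38.6 FPKM in injured muscle, where the median tested gene had 7.91 and 10.3 FPKM. In resident macrophages the median member had 15.4 FPKM against 10.6 FPKM for all tested genes, and in infiltrating cells 14.2 against 7.60 FPKM. Of the 77 members, 53 lay above the median tested gene in resident macrophages, 61 in infiltrating cells, 75 in mdx muscle and 73 in injured muscle.

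To follow the genes together, a module level was computed for each library as the mean log2(FPKM + 1) of the 77 members minus the median log2(FPKM + 1) of all tested genes. In resident macrophages it was 0.56 without and 0.58 with GFP among MHCII+ cells, and 0.59 without and 0.38 with GFP among MHCII- cells. In infiltrating cells it was 0.98 on day 2, 0.76 and 1.15 in the 2 libraries of day 4 and 0.67 on day 6. These values show 1 low gate among the resident cells and, on day 4, a gap between replicates wider than that from day 2 to day 6.

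In mdx muscle the module level was 2.19, 2.09 and 2.34 in the controls and 2.33, 2.27 and 2.43 under PLX, so the groups overlapped. In injured muscle it was 2.03 in the 12 h control and 2.02 and 2.12 in the 18 h controls, against 1.49 in the 12 h PLX library and 1.85 and 1.98 in the 18 h PLX libraries. The 12 h PLX library was the lowest of the 6, and the 18 h PLX libraries lay just below all 3 controls. Large and small subunit genes stood alike, with levels of 1.55 and 1.37 in the 12 h PLX library and 2.08 and 1.95 in its control.

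**Figure D1:**
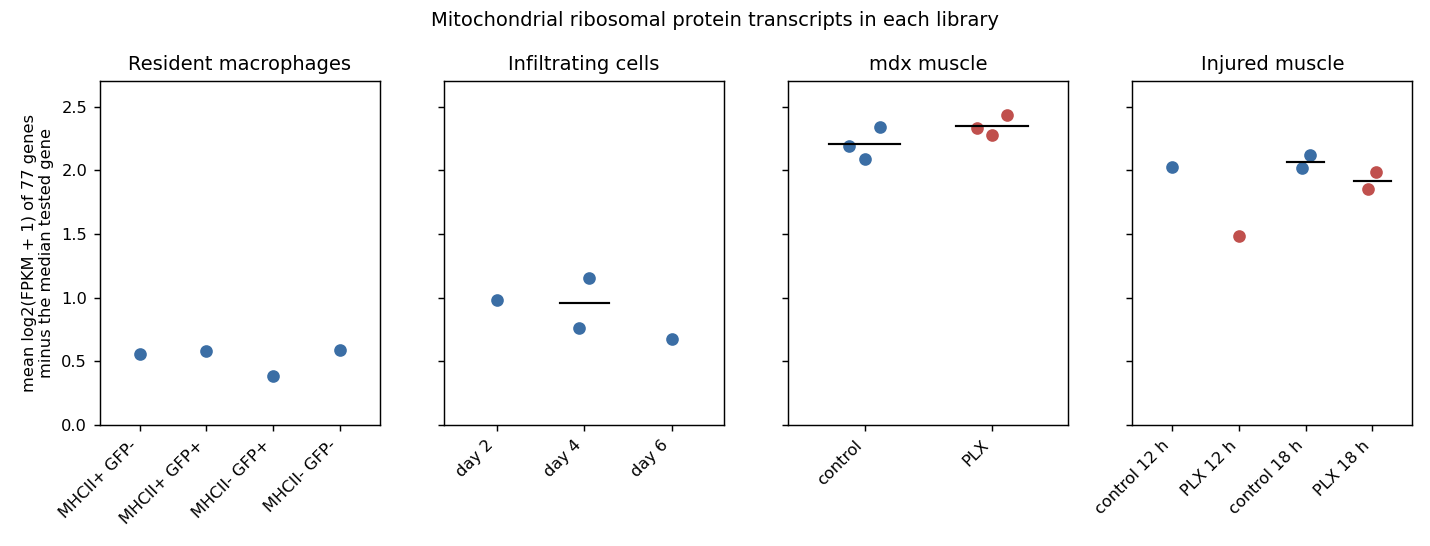
Module level of the 77 genes in each of 20 libraries, as the mean log2(FPKM + 1) of the members minus the median of all tested genes in that library, by gate, day, diet and hour. Each point is a library, lines are means of groups with more than 1 library, and red marks the PLX diet. The 12 h PLX library at 1.49 lies below all other injured muscle, and sorted cells lie below whole muscle on a scale set within each table.

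Single members spanned a wide range of levels. The highest in resident macrophages were Mrpl33 (104 FPKM), Mrpl52 (88.1), Mrps21 (82.8) and Mrpl23 (65.7), and in infiltrating cells Mrpl52 (100.5), Mrpl33 (70.0), Mrpl54 (55.2) and Mrps21 (53.3). In mdx muscle they were Mrpl42 (358 FPKM), Mrps21 (306), Mrpl33 (299) and Mrpl12 (194), and in injured muscle Mrpl52 (405), Mrpl33 (384), Mrps21 (243) and Mrpl42 (223). Mrpl33 and Mrps21 encode small proteins with bacterial counterparts, and Mrpl42 and Mrpl52 encode mitochondria-specific proteins of the large subunit. At the low end of muscle were Mrps25 and Mrpl19, at 5.32 and 5.42 FPKM in mdx muscle. In injured muscle they had 8.12 and 6.17 FPKM. Each shares its locus in the authors' tables with a neighbour (Nr2c2 and Gcfc2), so their values are uncertain.

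The 3 homologues of bacterial S18, of which the product of Mrps18a sits in the large subunit and those of Mrps18b and Mrps18c in the small one, differed widely in level. In resident macrophages Mrps18a, Mrps18b and Mrps18c had means of 23.6, 11.2 and 35.8 FPKM, and in mdx muscle 77.6, 23.8 and 115 FPKM. Mrps18b was the lowest of the 3 in mdx muscle, and Mrps18c the highest. Among the genes of human disease, Mrpl12 had 27.7 FPKM in resident and 27.5 FPKM in infiltrating cells, 194 FPKM in mdx muscle and 198 FPKM in injured muscle. Mrpl44 and Mrps22 were lower, at 36.6 and 19.1 FPKM in mdx muscle and 5.78 and 7.77 FPKM in resident cells.

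The order of the members was much the same in the 2 whole-muscle tables and in the 2 tables of sorted cells. As a description over 77 genes that share libraries and lengths, Spearman's rho was 0.942 between mdx and injured muscle, 0.910 between resident and infiltrating cells and 0.706 between resident cells and mdx muscle. A few genes, chosen after their values were seen, held different ranks in the 2 kinds of sample. Mrpl23, whose product lies near the exit of the nascent chain, ranked 4 and 5 of 77 in resident and infiltrating cells and 64 and 62 in mdx and injured muscle. Mrps33, a mitochondria-specific small subunit gene, ranked 14 and 26 in the sorted cells and 71 and 74 in muscle. In the other direction, Mrpl53 ranked 30 and 47 in the sorted cells and 6 and 13 in muscle. It shares its locus in the authors' tables with Ccdc142, so its values are uncertain.

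In dystrophic muscle the comparison was of mice given the CSF1R inhibitor for 6 months with mice on control diet. No member of the mitochondrial ribosome passed the test in either direction (limma-trend on log2(FPKM + 1), Benjamini-Hochberg adjusted p under 0.05), where 0.127% of all tested genes were called higher and 0.0294% lower. The changes were small and leaned one way, with 74 of 77 positive (63 after quantile normalization) and a median log2 change of 0.14, against -0.0028 over all 10197 genes. An unadjusted p under 0.05 was reached by 12 members, all positive, which is 15.6% of them beside 16.2% of all genes. For 18 members every PLX library lay above every control, or 23.4% beside 11.4% of all genes, and for none did every PLX library lie below, beside 11.6% of all genes.

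Mrps36, the 2-oxoglutarate dehydrogenase component, had the highest ratio of change to error. It measured 30.9, 29.2 and 34.7 FPKM in the controls and 43.0, 37.2 and 42.2 FPKM under PLX (log2 change 0.36, SE 0.102, limma adjusted p = 0.182). Its groups did not overlap, though the adjusted p missed the threshold. Mrps6, a small subunit gene with a bacterial counterpart, measured 22.2, 21.7 and 26.6 FPKM in the controls and 29.5, 27.1 and 34.2 FPKM under PLX (log2 change 0.35, SE 0.121, limma adjusted p = 0.243). The lowest PLX value of Mrps6 stood just above the highest control, and the transcribed region contains the gene Slc5a3, so part of its signal may belong to that gene. Mrpl14 measured 107, 94.3 and 128 FPKM in the controls and 141, 125 and 150.3 FPKM under PLX (log2 change 0.34, SE 0.132, limma adjusted p = 0.277). Here the groups overlapped, because control replicate 3 exceeded a PLX library. Mrpl41 had a log2 change of 0.31, limma adjusted p = 0.317. It shares its locus in the authors' tables with Dph7.

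Among members known for their role, Mrpl12, the stalk protein of the large subunit, averaged 173 ± 30.9 FPKM in controls and 214 ± 18.3 FPKM under PLX (SD, n = 3 each; 0.31, limma adjusted p = 0.330). Mrpl3 averaged 29.0 ± 2.61 and 34.6 ± 2.37 FPKM (0.25, limma adjusted p = 0.284), with no overlap between the groups. Mrps12, which lines the decoding centre, averaged 55.0 ± 3.05 and 63.7 ± 9.60 FPKM (0.20, limma adjusted p = 0.448), and its groups overlapped. For the disease genes Mrps7, Mrps22, Mrps34 and Mrpl44 the log2 changes were 0.15, 0.092, 0.24 and 0.057, with limma adjusted p from 0.289 to 0.828. Exons of Mrps34 overlap those of Nme3 on the same strand, so part of its signal may belong to that gene. Of the 3 homologues of bacterial S18, Mrps18a had a log2 change of 0.30 with no overlap, while Mrps18b and Mrps18c had 0.14 and 0.074 with overlapping groups. The 3 negative members were Mrpl50 (-0.12), Mrps33 (-0.033) and Mrpl32 (-0.032), with limma adjusted p of 0.553, 0.929 and 0.866.

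Neither subunit nor origin separated the members in mdx muscle. The median log2 change was 0.14 for the 48 Mrpl genes and 0.14 for the 29 Mrps genes, and 0.14 for the 47 with a bacterial counterpart and 0.14 for the 29 without. Nuclear genes of the respiratory chain, whose mitochondrial partners this ribosome makes, had 81 of 81 positive, a median of 0.24 and none past the threshold (Cox5b 0.48, Ndufs5 0.038). Relative to these genes the members' mean level differed between diets by -0.10, the opposite sign. Cytosolic ribosomal protein genes had a median of 0.072, with 68 of 82 positive and none past it. The 6 mitochondrial ribosomal genes with other names were all positive (median 0.10), from Dap3 at 0.027 to Gadd45gip1 at 0.29.

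The machinery around the mitochondrial ribosome had lower medians than the members in mdx muscle, though some of its groups leaned the same way. Of all tested genes 49.4% were positive. Assembly and ribosomal RNA modification factors had 14 of 25 positive and a median of 0.040, and aminoacyl-tRNA synthetases 13 of 20 with a median of 0.021. Translation factors had 13 of 17 positive and a median of 0.086, with the elongation factor Tsfm at 0.37 (limma adjusted p = 0.166). Genes of mitochondrial DNA replication and transcription had 3 of 10 positive and a median of -0.038. The 10 regulators had a median of 0.043, with Myc at 0.41 and Gabpa, a transcription factor of mitochondrial genes, at -0.21. No gene of these 4 groups or of the regulators passed the threshold.

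Control replicate 2 bears on the mdx values. It was the lowest of the 6 libraries for 59 of 77 members, beside 24.3% of all tested genes, and without it the median was 0.075, with 62 of 77 positive. PLX replicate 3 was the highest for 47, beside 23.6%. Control replicate 2 also had the highest sum of the 14 pan-macrophage markers, at 831 FPKM, where the controls ranged from 101 FPKM up to it and the PLX libraries from 100.5 to 241 FPKM. The part of these cells in the members' values was not tested, and in whole muscle fewer cells of a type and less RNA per cell cannot be told apart. Fibre markers, with missing values taken as 0, summed to 164597 to 187005 FPKM in controls and 155699 to 174324 FPKM under PLX. Only 13 of the 15 had a value in every library, so these sums are not comparable between diets. Of the 13 fibre markers tested, 12 were lower under PLX and 1 higher (median -0.20). Of the 13 pan-macrophage markers tested, 12 were lower and 1 higher (median -0.84). None of either list passed the threshold, and 49.4% of all tested genes were higher.

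**Figure D2:**
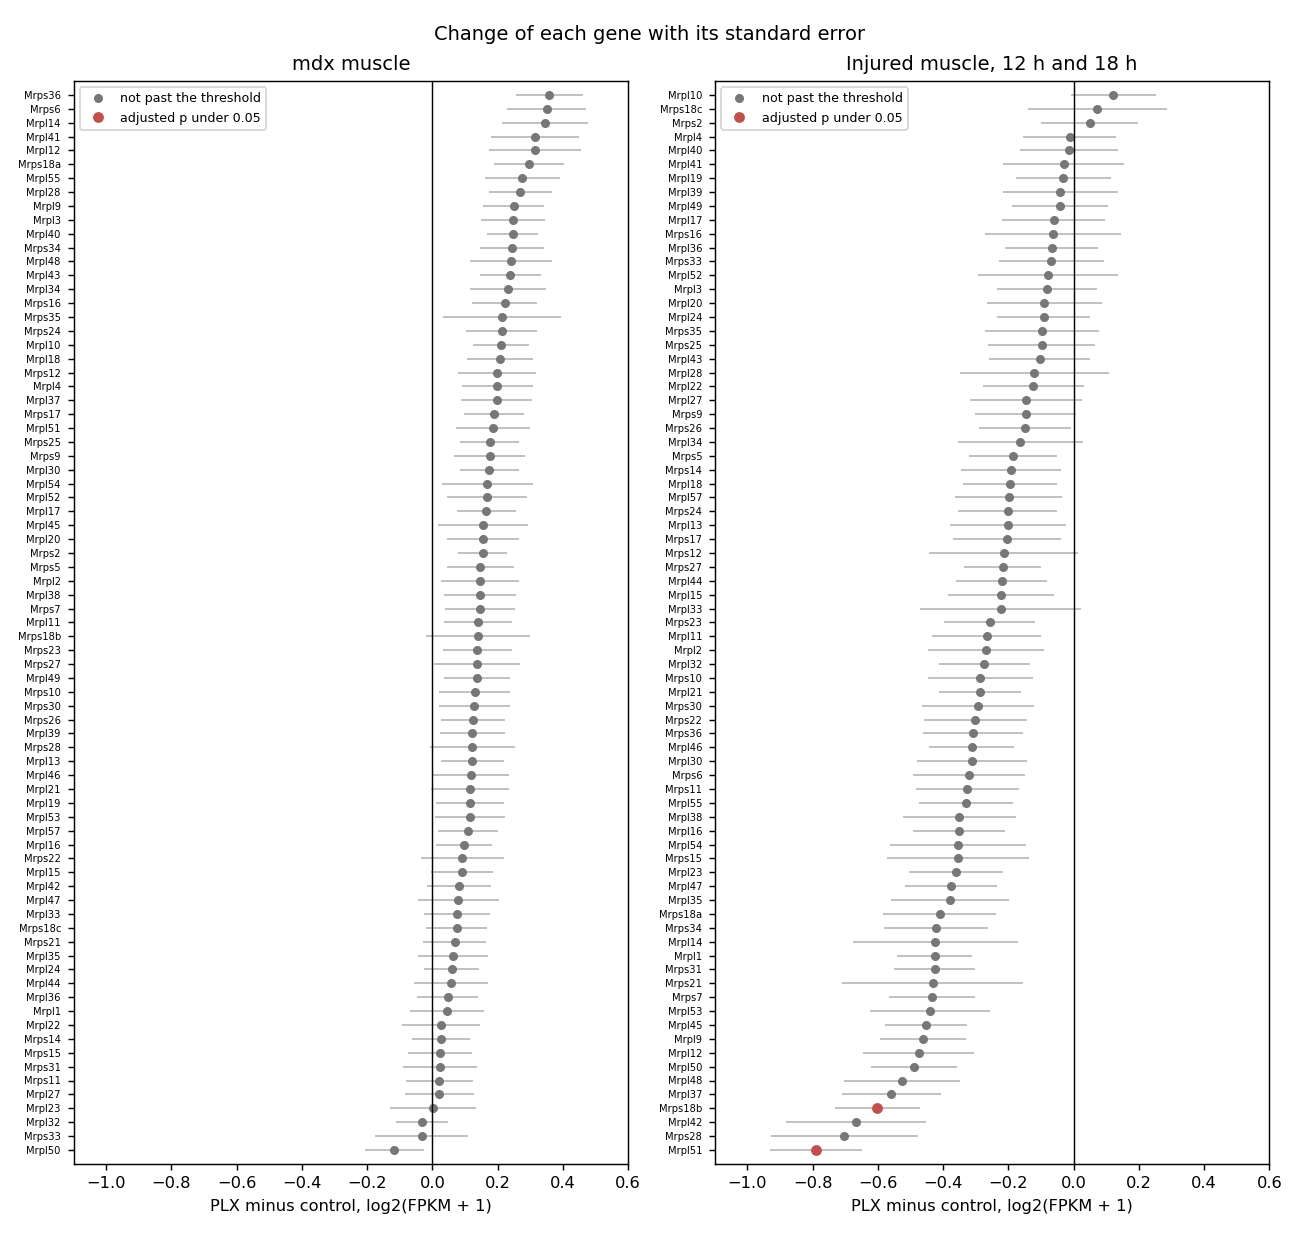
Log2 change of each of the 77 genes between PLX and control diets in mdx muscle (3 libraries each) and in injured muscle (3 each, with hour as a term), each panel ordered by its own change. Points are limma estimates on log2(FPKM + 1), bars are standard errors and red marks an adjusted p under 0.05. Nearly all points lie right of 0 in mdx muscle and left of 0 in injured muscle, and only Mrpl51 and Mrps18b pass the threshold.

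In injured muscle the comparison was of mice with and without earlier CSF1R inhibition in the first hours after damage. Of the 77 members 2 were lower after the PLX diet and none higher (limma-trend with diet and hour, adjusted p under 0.05), where 6.23% of all 11578 tested genes were called lower and 5.42% higher. The share of members called, 2.60%, lay under that of all genes. Of the 77 changes 74 were negative and 3 positive (13 positive after quantile normalization), with a median of -0.26 against -0.018 for all genes. Within both hours every PLX library lay below every control for 28 members, or 36.4% beside 23.3% of all genes, and above for none, beside 20.3%.

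The 2 genes called lower were Mrpl51, a mitochondria-specific gene of the large subunit, and Mrps18b, 1 of the 3 homologues of bacterial S18. In the GENCODE M21 annotation of the mm10 build, Mrpl51 lies at chr6:125191801-125196269 and Mrps18b at chr17:35910379-35916389. Mrpl51 measured 86.3 FPKM in the 12 h control and 79.4 and 84.5 FPKM in the 18 h controls, against 42.6 FPKM in the 12 h PLX library and 48.1 and 53.3 FPKM in the 18 h PLX libraries (log2 change -0.79, SE 0.141, limma adjusted p = 0.0234). Mrps18b measured 42.4 FPKM in the 12 h control and 44.3 and 42.9 FPKM in the 18 h controls, against 23.9 and then 29.7 and 31.3 FPKM after PLX (log2 change -0.60, SE 0.130, limma adjusted p = 0.0341). For both genes all 3 PLX libraries lay well below all 3 controls. Both calls were lost when any single 18 h library was left out (limma adjusted p from 0.0666 to 0.125), where 0 to 0.987% of all genes were called lower. They were also lost with the prefix that library titles share, which no label explains, as a further term (limma adjusted p 0.0544 and 0.0755) and with no filter on low values (0.101 and 0.109), where 2.23% and 0.0123% of all genes were called lower. Exons of Mrpl51 also hold the microRNA gene Mir3098, and the divergent neighbours of the 2 genes are Ncapd2 and Ppp1r10.

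The promoters of these 2 genes are shown beside those of Mrpl3 and Mrps22, the members that stood highest against their control at 12 h, and were chosen with their values and motifs known. Each sequence runs from 250 bases before to 50 after the gene's start in RefSeq on GRCm38.p6, the assembly called mm10, and capitals mark CCGGAAG or its reverse complement CTTCCGG, a core bound by ETS factors such as GABPA. The windows are chr6:125191950-125192249 on the plus strand, chr17:35916391-35916690 on the minus strand, chr9:105053018-105053317 on the plus strand and chr9:98601630-98601929 on the minus strand. RefSeq starts differ from the GENCODE M21 bounds given above. The Mrps18b window, with its marked motif, lies wholly upstream of the GENCODE gene, which starts at 35916389, and the Mrpl51 window lies inside its GENCODE bounds.
Mrpl51: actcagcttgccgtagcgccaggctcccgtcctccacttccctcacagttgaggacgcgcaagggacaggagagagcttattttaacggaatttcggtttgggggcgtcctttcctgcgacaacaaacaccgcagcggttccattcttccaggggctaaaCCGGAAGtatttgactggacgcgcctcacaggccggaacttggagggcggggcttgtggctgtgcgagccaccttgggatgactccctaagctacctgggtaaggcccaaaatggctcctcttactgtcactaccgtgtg
Mrps18b: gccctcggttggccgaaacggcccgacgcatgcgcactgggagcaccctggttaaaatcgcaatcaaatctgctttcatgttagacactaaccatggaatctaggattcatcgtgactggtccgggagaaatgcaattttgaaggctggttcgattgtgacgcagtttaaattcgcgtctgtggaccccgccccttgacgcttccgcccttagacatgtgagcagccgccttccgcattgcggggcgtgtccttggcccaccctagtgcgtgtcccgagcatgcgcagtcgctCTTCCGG
Mrpl3: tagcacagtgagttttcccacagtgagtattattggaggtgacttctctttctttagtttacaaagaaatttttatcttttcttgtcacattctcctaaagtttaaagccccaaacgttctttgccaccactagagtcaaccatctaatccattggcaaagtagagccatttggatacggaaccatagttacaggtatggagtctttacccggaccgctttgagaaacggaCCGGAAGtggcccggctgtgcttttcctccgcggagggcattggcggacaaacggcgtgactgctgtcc
Mrps22: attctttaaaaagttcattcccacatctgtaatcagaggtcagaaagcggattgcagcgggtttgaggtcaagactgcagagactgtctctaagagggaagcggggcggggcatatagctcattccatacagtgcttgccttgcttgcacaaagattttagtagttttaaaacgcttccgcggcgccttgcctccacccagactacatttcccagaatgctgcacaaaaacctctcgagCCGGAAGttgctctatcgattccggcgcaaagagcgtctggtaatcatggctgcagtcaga
Each of the 4 holds the motif once, which was known when they were chosen. RefSeq promoters were matched for 68 of 77 members, and 24 of these (35.3%) hold CCGGAAG on either strand. Of all 27025 promoters 9.12% hold it. So do 19.7% of the 7845 promoters of genes expressed in mdx muscle, at a mean of at least 1 FPKM there. TATAAA occurs in 4 (5.88%), beside 14.2% of all promoters and 7.20% of expressed ones. A loose site of the factor NRF1 was found in 14 (20.6%, beside 6.43% and 15.0%), the strict NRF1 site within it in 3 (4.41%, beside 0.977% and 2.27%) and a YY1 site in 5 (7.35%, beside 0.899% and 2.46%). The YY1 site begins with the letters AAG that end CCGGAAG, so the 2 can overlap. Both strands were searched, and a match describes the sequence only.

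Other members with large decreases in the estimate did not pass. Mrps28, a small subunit gene, measured 187 FPKM in the 12 h control and 138 and 169.6 in the 18 h controls, against 74.4 and then 112 and 120.3 FPKM after PLX (log2 change -0.70, SE 0.225, limma adjusted p = 0.0887). Mrpl42 measured 286 FPKM in the 12 h control and 231 and 301 in the 18 h controls, against 153 and then 149 and 217 FPKM after PLX (log2 change -0.67, SE 0.214, limma adjusted p = 0.0887). For both genes the groups did not overlap within an hour, and their standard errors exceeded those of the 2 genes that passed. The few positive estimates were Mrpl10 (0.12, limma adjusted p = 0.571), Mrps18c (0.073, limma adjusted p = 0.848) and Mrps2 (0.049, limma adjusted p = 0.853), for which PLX libraries did not all lie on 1 side of the controls. The 3 S18 homologues thus stood apart in their estimates, with Mrps18a at -0.41 (limma adjusted p = 0.165) between Mrps18b and Mrps18c, though the difference among them was not tested.

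Of the members with a known role, Mrpl12 averaged 229.6 ± 21.3 FPKM in the controls and 166 ± 25.4 FPKM after PLX over both hours (SD, n = 3 each; -0.48, limma adjusted p = 0.116). Mrps7 averaged 83.9 ± 3.11 and 62.0 ± 5.37 FPKM (-0.43, limma adjusted p = 0.0796), and Mrps34 58.9 ± 5.34 and 43.9 ± 6.27 FPKM (-0.42, limma adjusted p = 0.130). In these 3 the PLX libraries lay below the controls at both hours. Mrps12 (-0.21), Mrpl3 (-0.082), Mrps22 (-0.30) and Mrpl44 (-0.22) did not have every PLX library below the controls within both hours, and their limma adjusted p ran from 0.244 to 0.753. Mrps36, the largest positive estimate in mdx muscle, had -0.31, limma adjusted p = 0.222 here.

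Around the ribosome, 2 partner genes were called lower after the PLX diet, where 6.23% of all tested genes were. Chchd1, a mitochondrial ribosomal protein of the small subunit under another name, averaged 164 ± 11.5 FPKM in controls and 108 ± 12.5 FPKM after PLX (SD, n = 3 each; log2 change -0.61, limma adjusted p = 0.0493). Malsu1, an assembly factor that in human mitochondria binds MRPL14, averaged 53.8 ± 1.18 and 34.2 ± 1.73 FPKM (log2 change -0.64, limma adjusted p = 0.0266). They were the only calls among 6 ribosomal genes with other names (median -0.19) and 24 assembly factors (median -0.18). Whether these 2 calls hold without single libraries is not given here. No gene passed among 17 translation factors (median -0.14), 20 synthetases (median -0.066), 11 genes of mitochondrial DNA (median -0.13) or 10 regulators (median -0.26), where the lowest limma adjusted p was 0.0515.

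Nuclear genes of the respiratory chain were called lower more often than those of the ribosome in these libraries, a difference that was not tested. By sign the groups were alike, with negative changes in 80 of 82 nuclear oxidative phosphorylation genes and 74 of 77 members. Of these 82 genes, with a median of -0.61, 21 were called lower and none higher, beside 6.23% and 5.42% of all genes. Relative to the oxidative phosphorylation genes the members' mean level differed between diets by 0.18 at 12 h and 0.36 at 18 h, again the opposite sign. Among those called lower were Cox6a2 (-1.33), Cox7a1 (-1.21) and Cox8b (-0.91), muscle forms of cytochrome oxidase subunits. Fibre markers moved with them, since all 15 had negative changes (median -1.26) and 11 were called lower. Their summed level was 46128 to 63159.5 FPKM after PLX against 106852 to 145224 FPKM in controls, with none of the 15 at 0. Pan-macrophage markers summed to 2968 to 5265 FPKM after PLX and 2352 to 2757 FPKM in controls, with none at 0. All 14 had positive changes, and 6 were called higher, beside 5.42% of all genes. The part of the tissue's cell makeup in the members' decreases was not tested. Among 83 cytosolic ribosomal protein genes 70 had negative changes and the median was -0.12. Only Rpl3l, a form made in striated muscle, was called lower (-1.02, limma adjusted p = 0.0255).

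The difference between diets was wider in the 12 h pair of libraries than at 18 h. At 12 h, 74 of 77 members were lower after PLX, with a median difference of -0.55 beside -0.054 for all genes. At 18 h, 53 were lower, with a median of -0.089 beside 0.00054. The 12 h PLX library was the lowest of all 6 for 67 members, beside 27.2% of all tested genes. With either 12 h library left out, the diet contrast had 5 members lower (6.49%, beside 9.18 or 9.23% of all genes) and a median of -0.089, with Mrpl51 and Mrps18b still among the called and Mrps22 called as well (limma adjusted p from 0.0376 to 0.0384).

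Mrps28, Mrpl14, Mrps21 and Mrpl51 were past 2-fold lower on FPKM + 1 in the 12 h pair, at differences of -1.32, -1.21, -1.13 and -1.0, where 4.67% of all genes were past it lower, and no member was past it higher, beside 3.35%. Mrpl14 measured 135 FPKM in the 12 h control and 57.5 FPKM after PLX, and 104 and 108 FPKM against 98.9 and 109 FPKM at 18 h. It was thus low in a single library. Mrps12, of the decoding centre, measured 91.4 and 49.9 FPKM at 12 h, and 71.1 and 90.4 FPKM against 87.7 and 85.3 FPKM at 18 h, with the same shape. Mrpl51 and Mrps18b kept their gap at 18 h, at -0.68 and -0.50.

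The 3 members not lower at 12 h were Mrpl3 (0.28), Mrps22 (0.087) and Mrpl10 (0.063). Mrpl3 measured 21.3 FPKM in the 12 h control and 26.1 FPKM after PLX, and 26.4 and 27.2 FPKM against 23.1 and 21.2 FPKM at 18 h. Mrps22 measured 15.4 and 16.4 FPKM at 12 h, and 20.8 and 22.8 FPKM against 15.0 and 15.3 FPKM at 18 h. Both were higher in the 18 h controls than in the other 4 libraries.

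**Figure D3:**
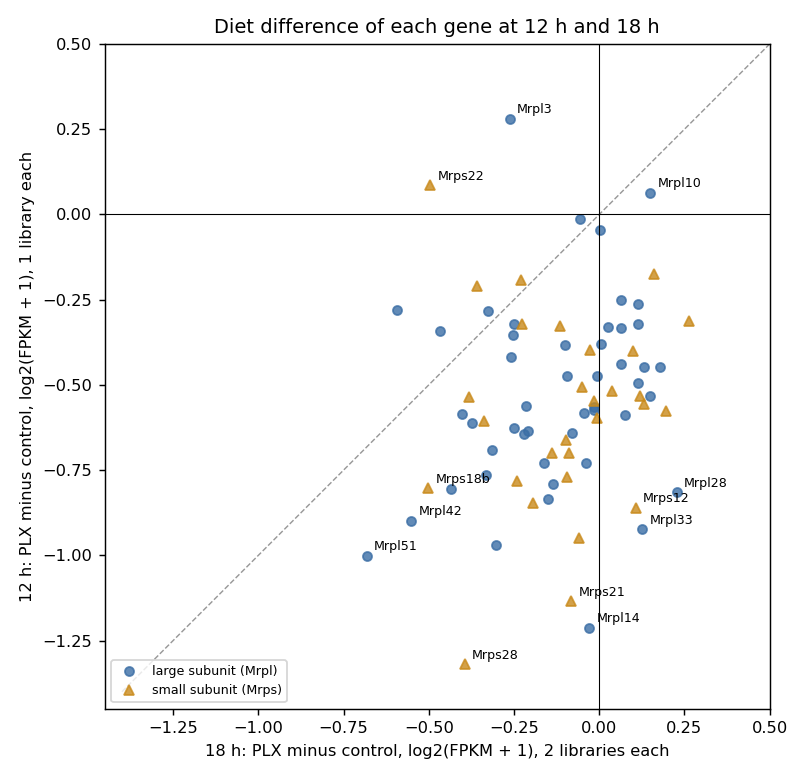
Difference between diets for each of the 77 genes at 12 h (vertical axis, 1 library per diet) and at 18 h (horizontal axis, 2 per diet), on log2(FPKM + 1), with circles for Mrpl and triangles for Mrps genes and a dashed line of equal difference. Most points lie under the line and below 0 at 12 h, with a median of -0.55, and are spread around -0.089 at 18 h.

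A test of whether the effect of diet differed between the hours called no member (limma-trend with 4 cell means), where 0.0432% of all genes were called with a higher and 0.0173% with a lower difference at 18 h. An unadjusted p under 0.05 was reached by 27 members, or 35.1% beside 23.3% of all genes. The median difference between hours was 0.44 for the members and 0.058 for all genes, with 69 of 77 positive. The largest were Mrpl14 (1.18, limma adjusted p = 0.102), Mrps21 (1.05), Mrpl33 (1.05) and Mrpl28 (1.04), and the most negative Mrps22 (-0.58), Mrpl3 (-0.54), Mrpl50 (-0.32) and Mrps36 (-0.15). With a lone library per diet at 12 h the absence of calls does not show that the hours were alike, and the same fit recovered none of the changes planted in simulated data. Members with a bacterial counterpart had a median of 0.53 and the others 0.37.

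Other genes stood low in the 12 h PLX library as well. Cytosolic ribosomal protein genes lay at a median of -0.57 from their mean over the 6 libraries and oxidative phosphorylation genes at -0.38, beside -0.41 for the 77 members. Genes of short coding length stood low too. The 25% of tested genes with the shortest coding sequence, without the members, lay at -0.24 and the 25% with the longest at 0.14. The median coding length of the members was 576 bases, against 1332 for all tested genes with a length, and 57 of 77 were among the shortest 25%. Measured against those short genes the module level differed between diets by -0.27 at 12 h and -0.16 at 18 h, where against the median gene it differed by -0.54 and -0.15. This measure was chosen after seeing the data, and the part of transcript length in the 12 h library was not tested.

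The contrast of hours, 18 h minus 12 h over both diets, called no member (limma-trend), where 0.00864% of all genes were called higher and 0.0691% lower. An unadjusted p under 0.05 was reached by 2 members, or 2.60% beside 19.7% of all genes. The median was 0.20 with 71 of 77 positive, and for 14 members (18.2%, beside 17.3% of all genes) every 18 h library exceeded the 12 h library of its diet. For 0 every 18 h library lay below, beside 20.3%. The lean was that of the PLX libraries, where 71 members were higher at 18 h (median 0.41), while in the controls 33 were higher (median -0.030). The largest estimates were Mrpl23 (0.42, limma adjusted p = 0.213), Mrpl28 (0.42), Mrpl40 (0.39) and Mrps25 (0.37), and the most negative Mrpl10 (-0.093), Mrpl55 (-0.062), Mrpl37 (-0.047) and Mrpl38 (-0.043). Without the 12 h PLX library the median was -0.030, and without the 12 h control it was 0.41, with 8 members called higher (10.4%, beside 8.63% of all genes). Mrpl40 measured 26.4 and 25.6 FPKM at 12 h in control and PLX muscle, and 33.1 and 35.7 FPKM in the controls and 29.8 and 39.8 FPKM after PLX at 18 h. It was higher at 18 h in both diets.

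Sorted cells had 1 library per gate or day except on day 4, so their differences are described by size with no test. Titles of the infiltrating libraries hold 200k on day 2, 50k and 60k on day 4 (replicates 1 and 2) and 15k on day 6. No label explains this number, and it changes with day, so the parts of the 2 cannot be told apart. Among infiltrating cells, day 6 was lower than day 4 in 72 of 77 members, with a median difference of -0.25 beside 0.011 for all genes. None passed 2-fold on FPKM + 1, where 1.13% of all genes were past it higher and 0.245% lower. The day 6 library was the lowest of the 4 for 49 members, beside 18.2% of all genes. It lay below both day 4 libraries for 57 members, or 74.0% beside 30.8% of all genes, and above both for 2, or 2.60% beside 29.8%.

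Mrpl46, a mitochondria-specific large subunit gene, showed the widest gap between day 4 and day 6. It measured 12.3 FPKM on day 2, 8.55 and 10.2 FPKM on day 4 and 5.38 FPKM on day 6 (difference -0.70). Its exons overlap those of Mrps11 on the other strand, and the labels name a stranded kit without saying whether counting used strand. Mrpl53 (-0.60), Mrpl22 (-0.50) and Mrpl40 (-0.47) followed. Mrps6 was the member highest above day 4 on day 6, at 0.29, with 7.30 FPKM on day 2, 8.65 and 9.30 FPKM on day 4 and 11.2 FPKM on day 6. Its values thus ran upward over the 3 days. Next were Mrps28 (0.072), Mrpl39 (0.0058) and Mrps27 (0.0056). Oxidative phosphorylation genes had a median of -0.28 between these days, close to that of the members, and cytosolic ribosomal protein genes -0.016.

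Between day 2 and day 4 the members differed in both directions, with 35 of 77 higher on day 4 and a median of -0.042 beside -0.025 for all genes. Mrps28 alone was past 2-fold, lower on day 4 (-1.02), where 4.99% of all genes were past it lower and 5.69% higher. It measured 25.6 FPKM on day 2, 11.5 and 12.7 FPKM on day 4 and 12.7 FPKM on day 6. The day 2 value thus stood apart from 3 close later ones. Mrpl52 was also highest on day 2, at 146 FPKM, but its later values were less close, with 76.9 and 101 FPKM on day 4 and 77.7 FPKM on day 6. Mrpl54 and Mrps18b were highest on day 2 too, with day 4 differences of -0.78 and -0.69. Mrpl34 (0.66), Mrps9 (0.49), Mrpl9 (0.47) and Mrps36 (0.45) were the highest above day 2. The day 2 library lay above both day 4 libraries for 27 members (35.1%, beside 41% of all genes) and below both for 22 (28.6%, beside 39.3%). Over the same days cytosolic ribosomal protein genes were higher by a median of 0.63 and oxidative phosphorylation genes by 0.11.

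The 2 libraries of day 4 stood apart from each other. Replicate 2 was the highest of the 4 libraries for 47 members, beside 23.8% of all genes. It was above replicate 1 in 67 of 77 members (median 0.27), although only 39.2% of all genes were higher in it. In replicate 2 the shortest 25% of genes by coding length lay at 0.14 and the longest at -0.23 from the mean of the 4 libraries. With replicate 1 alone for day 4 the module level differed from day 2 by -0.21, and with replicate 2 alone it differed by 0.18, so no direction is given for day 2 against day 4. The difference from day 4 to day 6 was -0.091 with replicate 1 alone and -0.48 with replicate 2 alone. Fibre markers summed to 22.6 FPKM on day 2, 93.4 to 129 FPKM on day 4 and 229 FPKM on day 6, and their part in the values was not tested.

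Among resident macrophages the MHCII- GFP+ gate had the lowest module level. It was the lowest of the 4 libraries for 41 of 77 members, beside 37.9% of all genes, and the highest for 15, beside 36.6%. Against the MHCII- GFP- gate the median member differed by -0.19 and all genes by -0.0043. Mrps12 alone was past 2-fold there, at -1.03, where 2.32% of all genes were past it lower and 2.51% higher. This gate was also the shallowest library, and its shortest 25% of genes by coding length lay at -0.082 from the mean of the gates. Against those short genes the module level of the 2 MHCII- gates differed by -0.076, and against the median gene by -0.21.

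Mrps12 measured 18.8 and 17.9 FPKM in the MHCII+ gates without and with GFP, 21 FPKM in MHCII- GFP- cells and 9.74 FPKM in MHCII- GFP+ cells. Mrpl14 had the same shape, with 27.5, 25.9 and 27.2 FPKM against 14.4 FPKM. Mrpl44 (-0.93) and Mrpl21 (-0.88) were also far lower in that gate. Some members went the other way, among them Mrpl33 (0.45), Mrps33 (0.38), Mrps22 (0.33) and Mrpl47 (0.32). Mrpl33 measured 131 FPKM in MHCII- GFP+ cells and 95.6 FPKM in MHCII- GFP- cells.

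Mrps6 had the widest difference with MHCII in both pairs of gates. It measured 33.2 and 44.8 FPKM in the MHCII+ gates without and with GFP, against 20.9 and 21.2 FPKM in the MHCII- gates. Both MHCII+ libraries lay above both others, with differences of 0.64 without GFP and 1.05 with it, and with GFP it was the only member past 2-fold, where 2.28% of all genes were past it higher and 1.42% lower. Which of Mrps6 and Slc5a3, at the locus they share, the signal belongs to cannot be told apart. In GFP- cells MHCII made little difference to the members, with 30 of 77 higher in MHCII+ cells and a median of -0.043. After Mrps6 came Mrps18b (0.39), Mrpl23 (0.30) and Mrps34 (0.26), and the lowest were Mrpl2 (-0.45), Mrpl16 (-0.36), Mrps2 (-0.34) and Mrpl50 (-0.32). In GFP+ cells, where the low MHCII- library is the comparator, 55 members were higher in MHCII+ cells with a median of 0.15. There Mrpl21 (0.89), Mrps12 (0.81) and Mrpl14 (0.80) came after Mrps6, and Mrpl42 (-0.71), Mrpl47 (-0.45), Mrpl33 (-0.42) and Mrpl50 (-0.40) were lowest. Between the 2 MHCII+ gates, 40 members were higher with GFP (median 0.020), led by Mrps28 (0.63), Mrps2 (0.51), Mrps6 (0.42) and Mrps14 (0.40). The lowest were Mrps18c (-0.47), Mrps34 (-0.43), Mrpl42 (-0.39) and Mrps35 (-0.30). Between these gates and between the GFP- gates no member was past 2-fold, beside 0.716% and 1.1% of all genes higher and 0.741% and 0.615% lower.

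**Figure D4:**
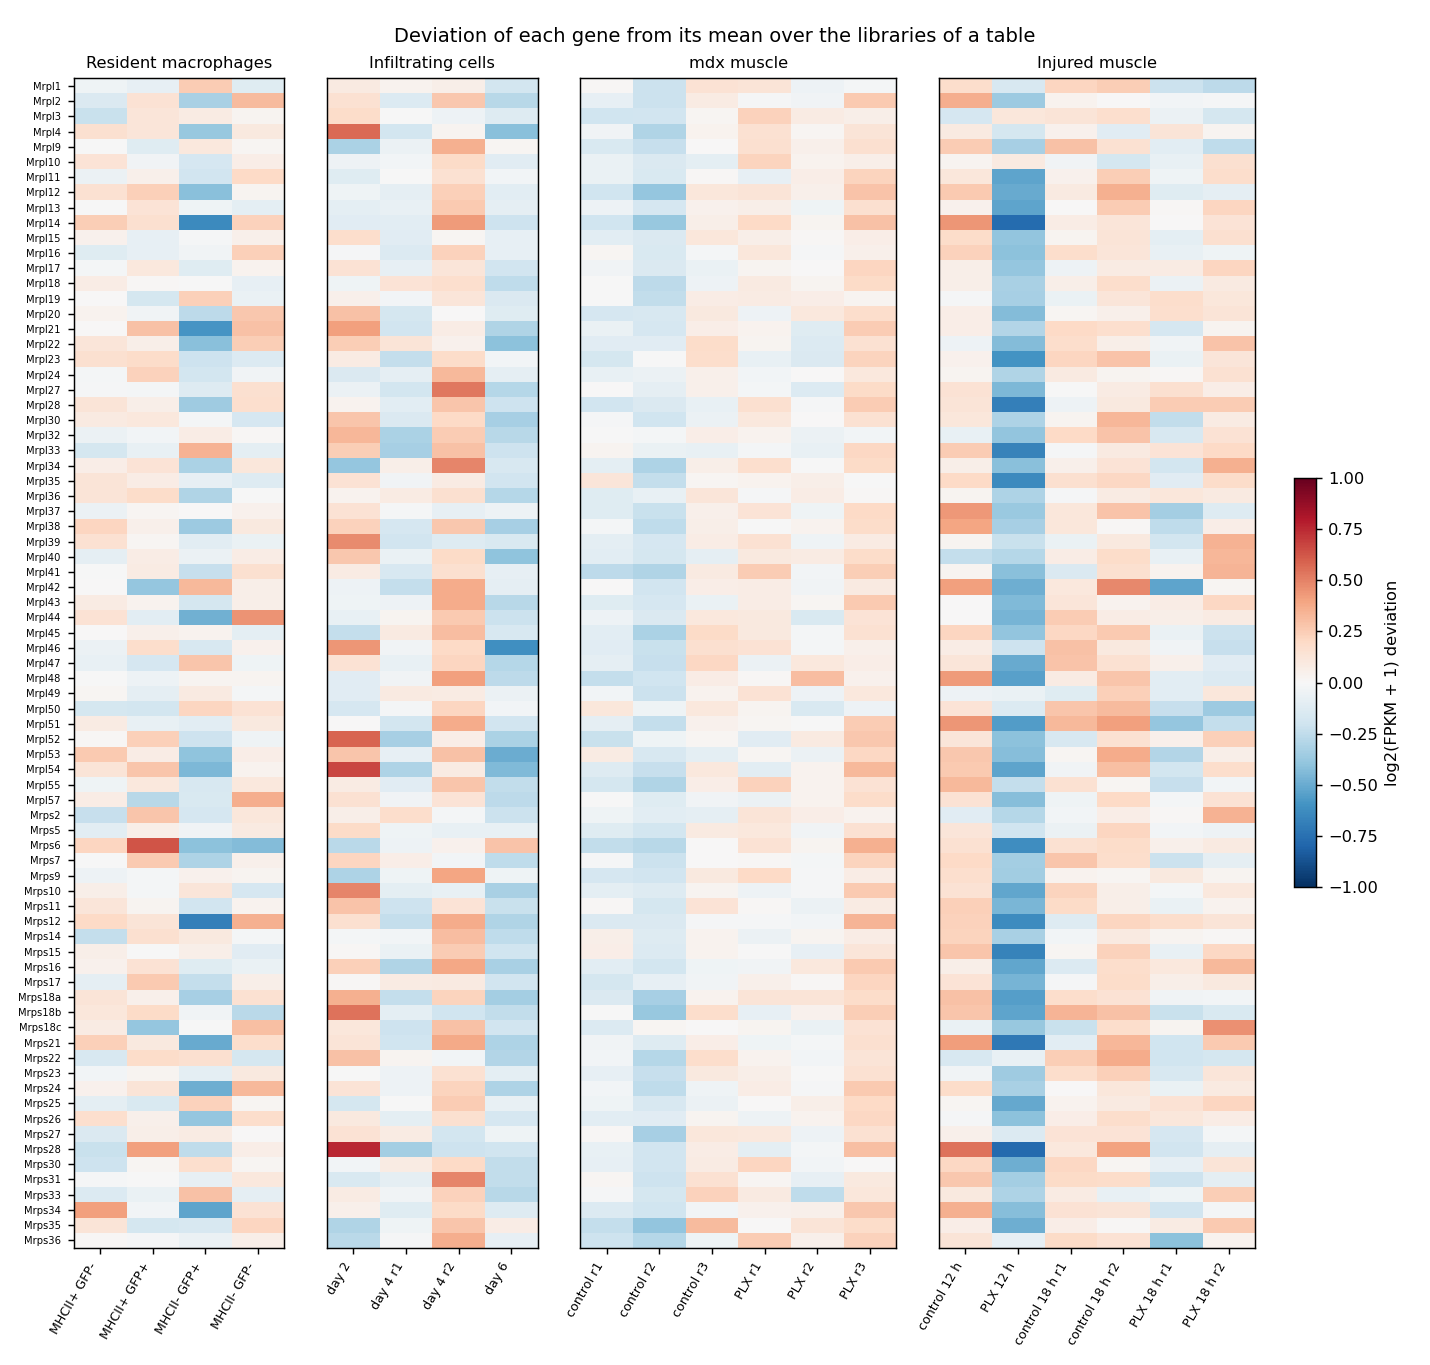
Deviation of log2(FPKM + 1) of each of the 77 genes (rows) from its mean over the libraries of its table (columns), with red above and blue below the mean and colours ending at -1 and 1. The 12 h PLX column is blue for nearly every gene, the mdx control replicate 2 and day 6 columns are mostly pale blue, and single genes such as Mrps6, Mrps12 and Mrps28 stand out in sorted cells.

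Beside other gene groups, the members stood near different partners in each table. In resident MHCII- GFP+ cells they lay at -0.12 from their mean over the 4 gates, with oxidative phosphorylation genes at -0.25 and cytosolic ribosomal protein genes at -0.23. On day 2 the members lay at 0.081 while cytosolic ribosomal protein genes lay at -0.45. On day 6 they lay at -0.20, near oxidative phosphorylation at -0.20 and apart from cytosolic ribosomal protein genes at 0.13. In the 18 h PLX libraries the members lay at -0.063 and 0.089, between oxidative phosphorylation genes at -0.34 and -0.26 and cytosolic ribosomal protein genes at 0.15 and 0.26. These are medians within single libraries and were not tested against each other.

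**Figure D5:**
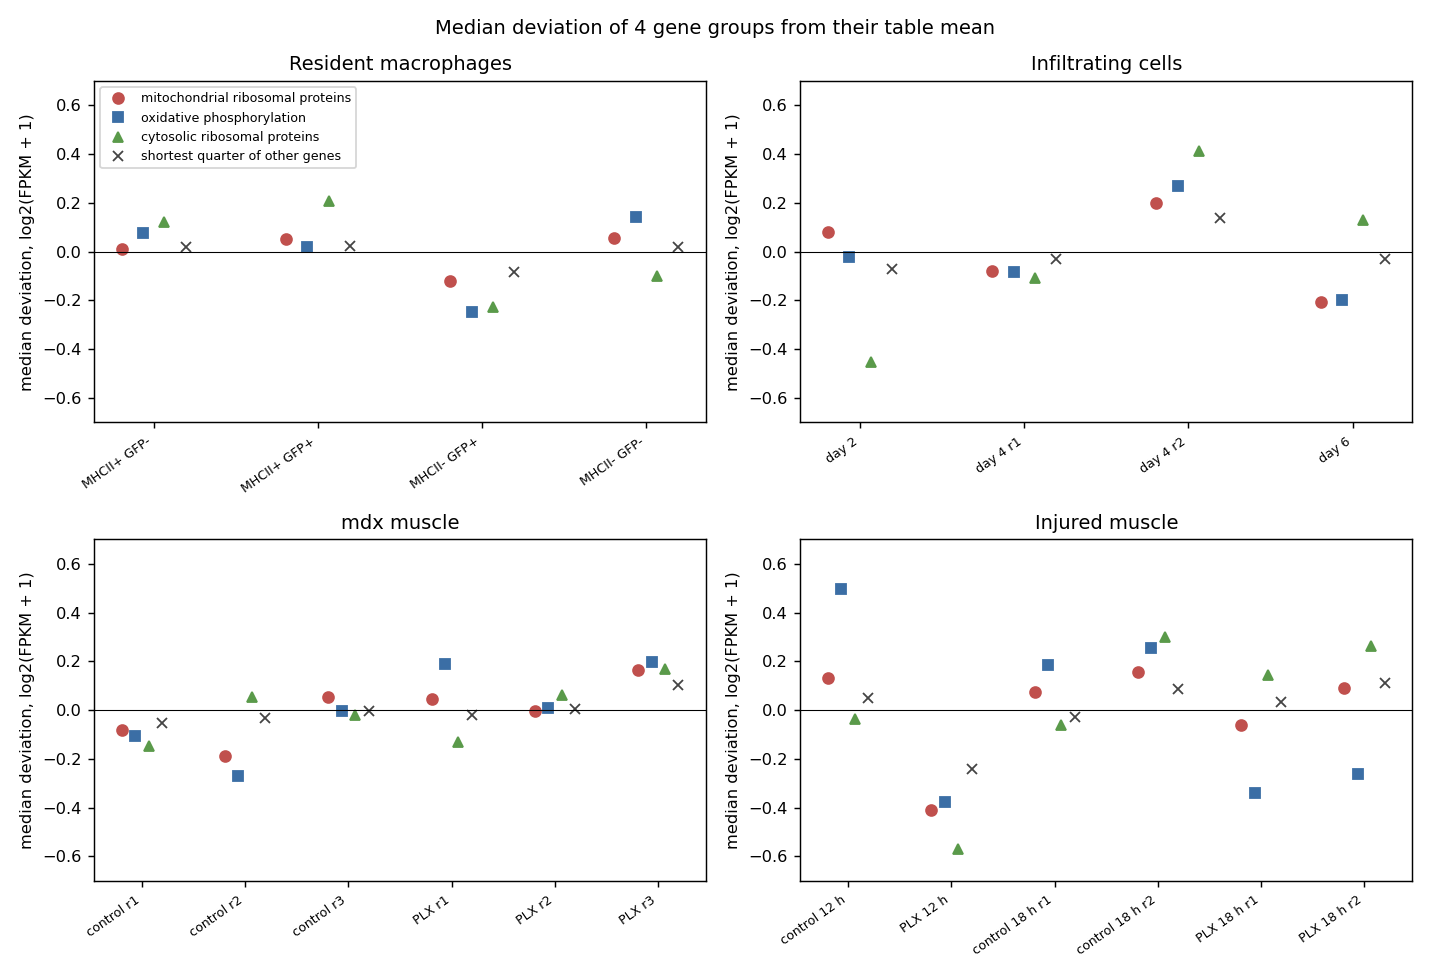
Median deviation from the table mean, on log2(FPKM + 1), of the 77 mitochondrial ribosomal protein genes (circles), nuclear oxidative phosphorylation genes (squares), cytosolic ribosomal protein genes (triangles) and the shortest 25% of other genes by coding length (crosses) in each library. All 4 groups are low in the 12 h PLX library, and the members lie near oxidative phosphorylation genes on day 6 and above them in the 18 h PLX libraries.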

How the data were processed

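RNA from 20 mouse libraries was prepared with a stranded mRNA kit and sequenced as paired-end reads, per the labels' protocols. The authors deposited FPKM values in 4 tables, and the submitters' processing notes name bcl2fastq, Bowtie, STAR, Cufflinks and mm10 without versions or roles. Counts per gene are not used here, and whether counting used strand is not given in the sources used here. Of the members, 26 share exons or a tabled locus with another gene in GENCODE M21 or the tables, and reads could be split between them. Entries turned into dates (50) or overwritten (2) were removed, and 3 genes in mdx and 10 in injured muscle with missing values were not tested. No member was among these.

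Values were analysed as log2(FPKM + 1), which understates changes of low genes. Genes averaging 1 FPKM or more in a table were fitted with limma-trend (limma 3.58.1 in R 4.3.3), two-sided, with Benjamini-Hochberg adjustment over all of them and a threshold of 0.05. The mdx model had diet. The injured model had diet and hour, and a model with 4 cell means gave the difference of diets between hours, which takes the spread of the 18 h libraries for the lone 12 h ones too. Whether the day 4 libraries came from separate pairs of mice is not given. Sorted cells were described with a rule of 2-fold on FPKM + 1. Samples were grouped by their labels. Pseudocount, filter, centring, quantile normalization, single libraries, reporter genotype, title prefix and the reference of the module level were varied. Coding length is the longest coding sequence of a gene in GENCODE M21, found for 93.1 to 94.4% of tested genes, and promoters came from RefSeq on GRCm38.p6. The fits were tested on simulated data, where that of diet by hour recovered none of the planted changes.

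The genes named are all members past the threshold, the largest changes each way where fewer than 4 passed, the highest and lowest levels per table, in sorted cells the 4 largest differences each way at a mean of at least 5 FPKM, and 11 members with a documented role. The members and gene lists were chosen with earlier results of these data known. Tables were handled in pandas 2.3.3 and numpy 2.4.6 under Python 3.11.15, and plots drawn in matplotlib 3.10.9.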

Additional observations from a re-analysis of the deposited data

How the results depend on the processing

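No alternative called a member in mdx muscle, and the member median stayed above that of all genes in each, by 0.083 to 0.21 when single libraries were left out (0.083 without control replicate 2). In injured muscle the count of members called lower was 2 and became 0 with no filter on low values, 5 at a mean of at least 5 FPKM, 5 in the 18 h libraries only and 0 to 5 when single libraries were left out. The share of all genes called lower was 6.23% and became 0.0123%, 9.52%, 9.54% and 0 to 9.23% in those fits. The member median minus that of all genes was -0.24, and it was -0.14 after quantile normalization, -0.093 in the 18 h libraries only and -0.32 to -0.090 without single libraries. The same difference for the contrast of hours was -0.0028 to 0.38 without single libraries (member median -0.030 to 0.41), reversing without the 12 h PLX library (-0.0028), and 0 to 8 members were called higher, beside 0.00862 to 8.63% of all genes. For diet by hour it was 0.26 after quantile normalization and 0.35 to 0.48 without single libraries, and it could not be fitted without a 12 h library.

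The module level turned on its reference. Relative to oxidative phosphorylation subunits the differences reversed to -0.10 for mdx diet, 0.18 and 0.36 for injured diet at 12 h and 18 h, 0.016 for day 6 minus day 4 and 0.17 for GFP+ minus GFP- in MHCII- cells, and that of hours in controls became 0.19. Relative to cytosolic ribosomal proteins they reversed to -0.24 and -0.36 for hours in control and PLX and -0.21 for MHCII in GFP+ cells, and became -0.050 for injured diet at 12 h and -0.70 for day 4 minus day 2. At a mean of at least 5 FPKM the injured diet difference at 12 h was -0.45, and against the shortest genes, chosen after seeing the data, it was -0.27, with 0.15 for hours in PLX. Past 2-fold, GFP+ minus GFP- in MHCII- cells had 2 members lower with a pseudocount of 0.1, and day 4 minus day 2 had 0 lower after centring and 0 to 1 without a day 4 library. The causes were not tested.

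The labels give no replicate numbers. Titles share prefixes whose meaning no label gives. Deviations of mdx muscles with the same prefix correlated at 0.0593 to 0.355, and each library correlated best with its own prefix, but 1 of the 3 pairs was under 0.1, so they were not treated as pairs. Within a prefix the module level differed between diets by 0.14, 0.096 and 0.19 in mdx muscle, and by -0.54 at 12 h and -0.13 and -0.17 at 18 h in injured muscle. With the prefix as a replicate block 0 members were called in mdx muscle, where 18 had an unadjusted p under 0.05 (23.4%, beside 19.8% of all genes), and 0 in injured muscle, beside 2.23% of all genes called lower. Mrpl51 and Mrps18b had limma adjusted p from 0.0181 to 0.125 over all settings. Depth is unknown outside infiltrating cells, so the precision of the lowest members cannot be given.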
